A study of Homo sapiens with 6 samples.

Results

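The genes described here are those of glial cells, Schwann cells and the brain's extracellular matrix, read in a melanoma cell line and in its drug-treated colonies. They were taken from a list of 39 genes by the rule that a probe set must carry the gene's symbol and no other, with the probe set of the highest mean used for each gene. Of the 39, 37 were measured among 18417 genes in all, and the other 2 were not analysed here. WM164 is an established line of BRAF-mutant melanoma. Parent 1 to 3 are labelled control and untreated, and the series title gives them DMSO, the solvent, at a matching concentration. IDTC colony 1 to 3 come from the same line after 60 days in 500 nM PLX4032 (vemurafenib), an inhibitor of mutant BRAF, and their descriptions call them resistant. Both groups were grown in RPMI with serum. All 6 samples, 3 a group, stem from a single cell line, with RNA isolated from each on its own. The labels do not say whether the 3 samples of a group were separate cultures, and where they were not, the p-values measure a technical spread alone. The question is which of these genes the colonies expressed at another level than the parent cells.

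Melanocytes and Schwann cells both arise from the neural crest, an embryonic cell population that also gives rise to other glia of peripheral nerves, and melanomas can express genes of the glial branch. In the brain, hyalectans such as brevican are chondroitin sulfate proteoglycans that bind hyaluronan, and link proteins of the HAPLN family fasten them to it. Myelin is the layered membrane with which oligodendrocytes and Schwann cells wrap axons, and its compaction depends on proteins such as myelin basic protein.

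Values are the deposited log2 expression values, so a difference of 1 is a 2-fold change, and every difference is colony minus parent. Array medians lay between 6.25 and 6.34, and the median SD within groups was 0.08 over all genes. Of 7 measured melanocyte markers, MITF, PMEL, MLANA, TYR and SOX10 lay above the array median in both groups, TRPM1 did so in colonies alone, and TYRP1 lay below it in both. Of these 7, 5 passed the test (limma, adjusted p under 0.05), a share of 71.4% beside 43.8% of all genes. TRPM1 (1.63), SOX10 (0.42) and PMEL (0.33) were higher in colonies, and MLANA (-1.445) and TYRP1 (-0.23) lower, while MITF and TYR did not pass. Of 31 markers of neurons, fibroblasts, keratinocytes, leukocytes and endothelial cells, 21 lay below the array median in both groups. Of these 31 markers, 5 passed the test, a share of 16.1% beside 43.8% of all genes. They were SNAP25 (1.06) as higher and GAD1 (-0.25), LUM (-0.34), CD68 (-1.27) and LYZ (-2.35) as lower. TYRP1 did not pass without parent replicate 3 (-0.18, limma adjusted p = 0.0749), colony replicate 2 (-0.24, adjusted p = 0.0713) or colony replicate 3 (-0.19, adjusted p = 0.0864), nor LUM without colony replicate 1 (-0.32, adjusted p = 0.0576). The part of all these markers in the results was not tested. In RNA from whole cultures, fewer cells that express a gene and less RNA per cell cannot be told apart.

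Members moved in both directions and by large amounts. Of the 37 measured, 10 rose in the colonies and 10 fell (limma, adjusted p under 0.05), a share of 54.1%, while 17 did not pass the test. Over all genes tested the same test called 43.8%, 20.9% as higher and 22.9% as lower. A difference of at least 2-fold that passed the test was found in 12 members (32.4%), against 5.41% of all genes. The list was drawn up with earlier results of these data known, so these shares are descriptions. The 7 that rose at least 2-fold were BCAN, CNTNAP1, KCNJ10, MBP, DLX5, GPM6B and PTPRZ1, and the 5 that fell as far were SCRG1, HAPLN1, CDH19, TSPAN13 and PMP2. At least 2-fold higher calls made up 2.65% of all genes and lower ones 2.76%. The members' median difference was 0.08, against 0.00 over all genes.

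Both group means lay under the median of the array medians (6.32) for 11 members, and whether these lay above background was not tested. They were NCAN, VCAN, ACAN, CSPG5, MAG, MOG, GJC3, GPM6A, NES, AQP1 and AQP4, with means between 3.91 and 6.28. CSPG5 was the one of these 11 to pass the test. Among the other 26 members 19 passed, a share of 73.1%, beside 63% of all genes that were not under the median in both groups, and 12 of the 26 (46.2%) did so by at least 2-fold, beside 8.1%. The 3 parent and 3 colony values did not overlap in 22 members, beside 50.8% of all genes, and these 22 held all 20 members that passed the test together with VCAN and SOX8.

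**Figure D1:**
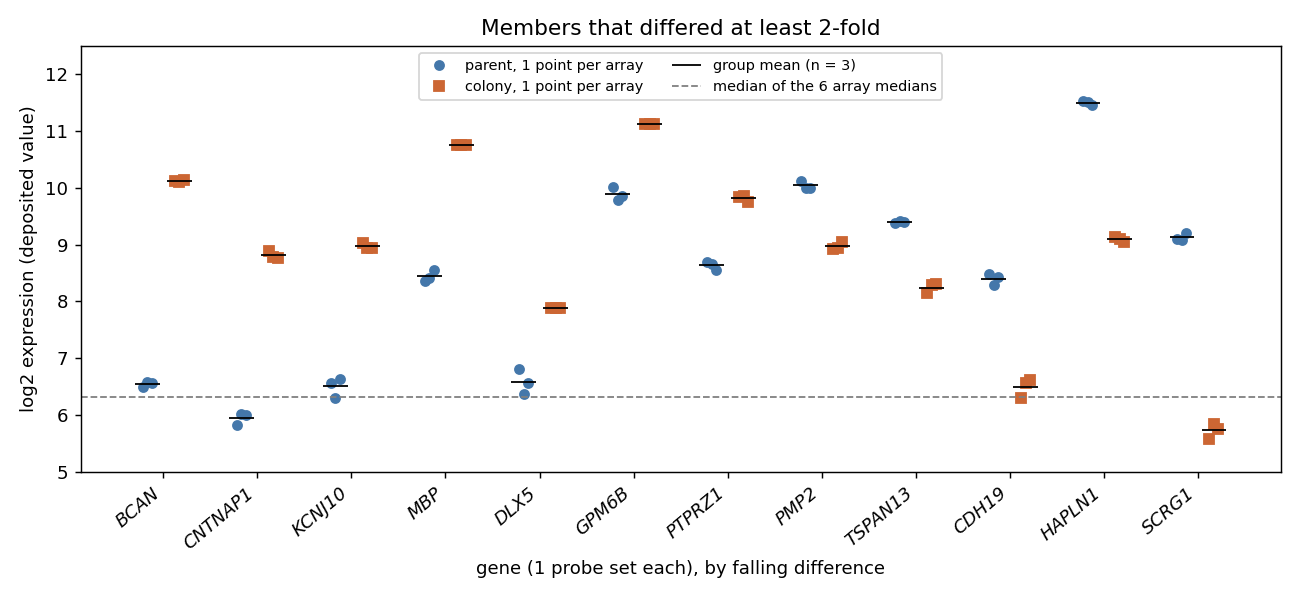
Deposited log2 expression of the 12 members that differed at least 2-fold, with 1 point for each of the 3 parent (circles) and 3 colony (squares) arrays, a bar for each group mean, and a dashed line at the median of the array medians (6.32). In each of the 12 genes the groups are separate, and the parent mean of CNTNAP1 (5.94) and the colony mean of SCRG1 (5.73) are the ones that lie under the dashed line.

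The promoters of the 2 largest rises and the 2 largest falls are shown as the sequence context of the members that moved most. Each window runs from 250 bases before to 50 bases after the RefSeq transcription start, 5′ to 3′ on the gene's strand, in GRCh38.p14. The windows are chr1:156641867-156642166 (plus strand) for BCAN, chr17:42682281-42682580 (plus) for CNTNAP1, chr4:173399067-173399366 (minus) for SCRG1 and chr5:83720806-83721105 (minus) for HAPLN1. Capitals mark the core letters of SOX factor motifs, ACAAAG or ACAAT on either strand. The same windows were searched on both strands for CACGTG and CATGTG, the letters of the E-box that MITF can bind, and held neither.
BCAN: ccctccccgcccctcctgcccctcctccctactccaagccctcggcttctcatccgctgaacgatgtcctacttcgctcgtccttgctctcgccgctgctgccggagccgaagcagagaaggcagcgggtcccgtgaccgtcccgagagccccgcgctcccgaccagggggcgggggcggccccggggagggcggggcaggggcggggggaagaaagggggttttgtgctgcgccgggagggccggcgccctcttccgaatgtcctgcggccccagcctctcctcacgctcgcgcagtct
CNTNAP1: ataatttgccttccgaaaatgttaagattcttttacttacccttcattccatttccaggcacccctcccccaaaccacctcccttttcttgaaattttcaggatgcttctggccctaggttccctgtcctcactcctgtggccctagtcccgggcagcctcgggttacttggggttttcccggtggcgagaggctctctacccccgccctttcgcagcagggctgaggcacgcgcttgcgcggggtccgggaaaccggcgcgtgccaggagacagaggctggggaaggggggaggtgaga
SCRG1: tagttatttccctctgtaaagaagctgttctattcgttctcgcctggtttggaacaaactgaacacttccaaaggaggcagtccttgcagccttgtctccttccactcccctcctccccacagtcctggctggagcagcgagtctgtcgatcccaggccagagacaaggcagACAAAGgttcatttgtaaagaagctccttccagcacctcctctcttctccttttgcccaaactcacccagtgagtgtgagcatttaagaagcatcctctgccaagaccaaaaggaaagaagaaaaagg
HAPLN1: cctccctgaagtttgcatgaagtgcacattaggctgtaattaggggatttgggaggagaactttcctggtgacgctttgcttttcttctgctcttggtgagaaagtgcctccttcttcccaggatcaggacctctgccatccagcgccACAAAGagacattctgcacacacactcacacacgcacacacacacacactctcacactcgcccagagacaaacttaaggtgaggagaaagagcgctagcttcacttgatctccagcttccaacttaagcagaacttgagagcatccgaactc
The windows of SCRG1 and HAPLN1 each held ACAAAG once, 78 and 102 bases before the start, while those of BCAN and CNTNAP1 held no SOX core. The BCAN window had a GC content of 72.7% and the CNTNAP1 window 58.7%, against 49.7% for SCRG1 and 50% for HAPLN1.

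RefSeq windows were found for 30 of the 37 measured members, and some genes had several. By gene, a SOX core was found in 20 of the 30 (66.7%), beside 36.2% of the 14239 measured genes with a window. It was in all 9 lower members with a window and in 5 of the 8 higher ones (62.5%), namely PTPRZ1, MBP, KCNJ10, GPM6B and FOXD3. By window, so that genes with several count more than once, it was in 25 of 44 member windows (56.8%), 13 of 14 of lower members and 5 of 11 of higher ones (45.5%), beside 37.6% of all 35116 windows. The median GC content was 49.8% in the windows of lower members and 68.3% in those of higher ones, beside 58.7% over all windows. An E-box was found in 5 of the 30 members (16.7%), beside 20.7% of measured genes, and in 7 of the 44 windows (15.9%), beside 17.6% of all windows. These matches describe letters only, and no binding was measured.

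Among hyalectans and link proteins, which bind hyaluronan in the matrix, 1 of 6 members rose and 1 fell. The called share was 33.3%, beside 43.8% over all genes. BCAN (probe set 7906205) encodes brevican, the hyalectan most closely tied to the brain. It was at 6.49, 6.58 and 6.56 on the parent arrays and at 10.13, 10.11 and 10.13 on the colony arrays. The parent values lay near the array median (6.32), and whether they lay above background was not tested. All 3 colony values stood far above all 3 parent values, and the rise of 3.58 ± 0.04 (log2 difference ± SE, adjusted p = 2.7e-08), 11.9-fold, was the eighth largest among all 18417 genes. HAPLN1 (probe set 8112971) encodes the link protein that stabilises the bond between hyalectans and hyaluronan. Its values were 11.52, 11.51 and 11.46 in parent cells and 9.13, 9.10 and 9.04 in colonies. The groups were well apart, and HAPLN1 changed by -2.41 ± 0.05 (adjusted p = 1.1e-07), a 5.31-fold fall. The link protein gene HAPLN3 (0.15), and the hyalectan genes VCAN (0.10), ACAN (0.08) and NCAN (0.05), encoding versican, aggrecan and neurocan, did not pass the test. The 3 hyalectan genes lay under the array median in both groups.

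Each hyalectan gene lies next to a link protein gene, with no protein-coding gene between them in the RefSeq order, and in none of the 4 pairs did both genes pass the test. HAPLN2, the neighbour of BCAN, had a parent mean of 6.44 ± 0.04 and a colony mean of 6.46 ± 0.02 (mean ± SD, n = 3), with a difference of 0.02 ± 0.04 (limma adjusted p = 0.761). VCAN, the neighbour of HAPLN1, differed by 0.10 ± 0.05 (adjusted p = 0.163). In the pair of HAPLN3 and ACAN neither passed the test, nor in that of HAPLN4 (0.03 ± 0.09) and NCAN. Of the 10 measured genes nearest to BCAN, 5 on each side, 4 were higher and 1 lower, beside 20.9% and 22.9% of all genes. Their median was 0.06 and their highest value 1.37 for METTL25B. NES is the next measured gene on the other side of BCAN from HAPLN2, and its difference of 0.09 did not pass.

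**Figure D2:**
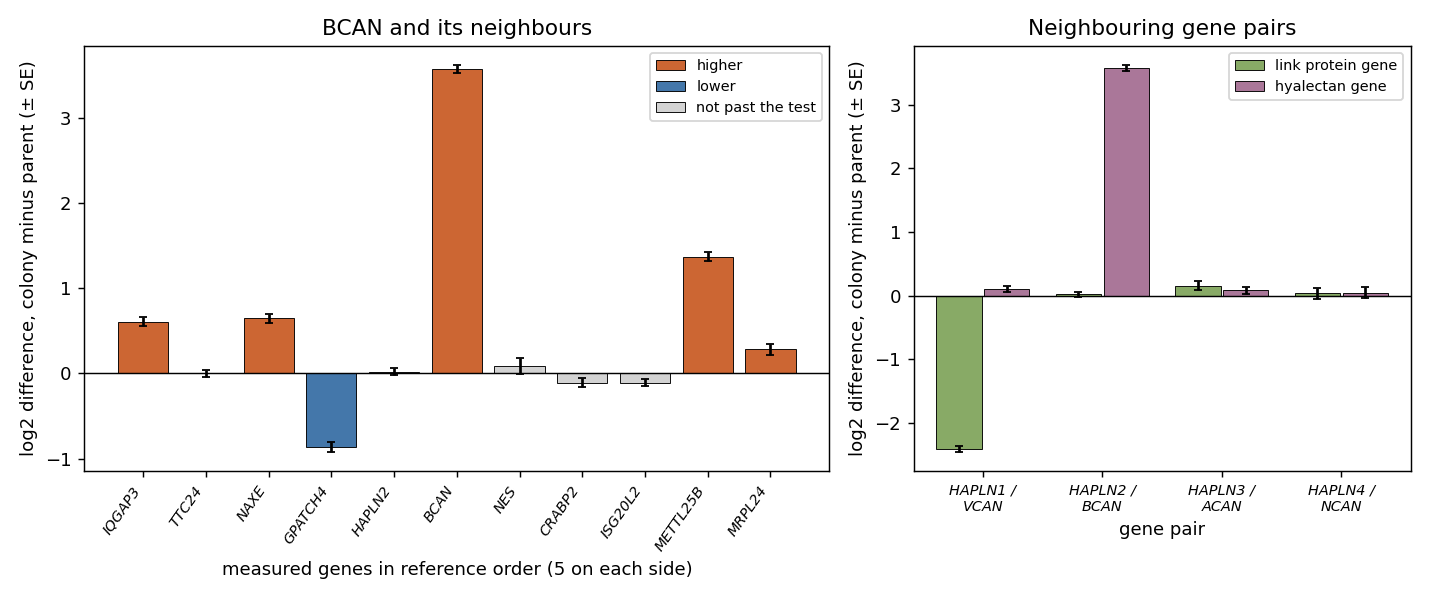
Log2 difference (colony minus parent, ± SE, 3 arrays a group) of BCAN and the 5 measured genes on each side in the RefSeq order (left), and of the 4 neighbouring pairs of a link protein gene and a hyalectan gene (right). BCAN stands at 3.58 between HAPLN2 at 0.02 and NES at 0.09, and in the pairs 1 gene each of HAPLN1 with VCAN and HAPLN2 with BCAN differs.

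The 3 proteoglycans that span the membrane all passed the test, which called 43.8% of all genes. PTPRZ1 (probe set 8135774), a receptor-type tyrosine phosphatase with chondroitin sulfate chains that is abundant in glia, was at 8.70, 8.66 and 8.55 in parent cells and 9.83, 9.86 and 9.75 in colonies. It rose by 1.18 ± 0.06 (adjusted p = 3.3e-06), 2.27-fold, with all colony values above the parent values. Of the 10 measured genes nearest to PTPRZ1, 6 were lower and 1 higher, beside 22.9% and 20.9% of all genes. Their median was -0.37. CSPG4, the NG2 proteoglycan of glial precursors and a known melanoma antigen, changed from 9.88 ± 0.08 to 9.25 ± 0.01 (mean ± SD, n = 3), a difference of -0.63 ± 0.05 (limma adjusted p = 4.0e-05). CSPG5, or neuroglycan C, changed by -0.20 ± 0.04 (adjusted p = 0.00771) with both means under the array median.

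Of 5 measured myelin genes 1 rose, 1 fell and 3 did not pass, a called share of 40% beside 43.8% over all genes. MBP (probe set 8023889) encodes myelin basic protein, which holds the inner faces of the myelin membrane together. Parent values were 8.37, 8.40 and 8.55, and all 3 colony arrays held the same deposited value of 10.75. The groups were clearly apart, with a rise of 2.31 ± 0.06 (adjusted p = 1.8e-07), 4.97-fold. Identical values on all 3 colony arrays were found for 3 members, MBP, CSPG5 and DLX5, and for 471 genes in all, which leaves no spread to read from these arrays. On all 3 parent arrays they were found for 215 genes, none of them a member. Some other members shared a value between arrays of a group, such as GPM6B in colonies at 11.1183. PMP2 (probe set 8151525), a fatty acid binding protein of peripheral myelin, was at 10.12, 10.003 and 10.002 in parent cells and 8.92, 8.93 and 9.05 in colonies. Colony values were all lower, and PMP2 changed by -1.07 ± 0.06 (adjusted p = 5.1e-06), a 2.10-fold fall. CNP, a phosphodiesterase of myelinating cells, differed by 0.10 ± 0.06, and MAG and MOG, surface glycoproteins of myelin, by 0.06 each. None of these 3 passed (adjusted p = 0.264, adjusted p = 0.380 and adjusted p = 0.628), and MAG and MOG lay under the array median in both groups.

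Membrane, junction and channel proteins of glia and of their contacts with axons had 3 of 8 members higher and 1 lower. The called share was 50%, beside 43.8% over all genes. CNTNAP1 (probe set 8007323) encodes Caspr, which sits on the axon at the junction where myelin loops attach. It was at 5.82, 6.01 and 5.9999 in parent cells and 8.89, 8.79 and 8.76 in colonies. The rise of 2.87 ± 0.07 (adjusted p = 1.5e-07), 7.29-fold, started from a parent mean under the array median, so its size is that of the deposited values. KCNJ10 (probe set 7921533) encodes the inwardly rectifying potassium channel Kir4.1 of glial cells. Its parent values were 6.56, 6.30 and 6.64, and its colony values 9.03, 8.94 and 8.94. The groups were far apart, with a rise of 2.47 ± 0.09 (adjusted p = 8.6e-07), 5.54-fold. The KCNJ10 parent mean of 6.50 lay near the array median, with parent 2 under it, so this fold too is that of the deposited values. GPM6B (probe set 8171359), a multi-pass membrane protein of the proteolipid family, was at 10.01, 9.78 and 9.85 in parent cells and 11.12, 11.12 and 11.13 in colonies. It rose by 1.24 ± 0.06 (limma adjusted p = 4.6e-06), 2.36-fold. Of the 10 measured genes nearest to GPM6B, 5 were higher, beside 20.9% of all genes, and their median was 0.31.

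CDH19 (probe set 8023710), a cadherin of Schwann cell precursors, was at 8.49, 8.29 and 8.42 in parent cells and 6.30, 6.56 and 6.62 in colonies. Colony values were all lower, and the lowest of them lay just under the array median. CDH19 changed by -1.91 ± 0.09 (adjusted p = 3.5e-06), a 3.75-fold fall. GPM6A, the relative of GPM6B, differed by 0.15 ± 0.08 and did not pass (adjusted p = 0.212). The glial gap junction gene GJC3 (0.14) and the water channel genes AQP1 (0.07) and AQP4 (-0.03) did not pass either. All 4 lay under the array median in both groups.

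Among 7 measured transcription factors 2 rose, 2 fell and 3 did not pass, a called share of 57.1% beside 43.8% over all genes. DLX5 was the one that reached 2-fold. DLX5 (probe set 8141140), a homeobox factor, was at 6.80, 6.36 and 6.57 in parent cells and at 7.89 on all 3 colony arrays. It rose by 1.31 ± 0.10 (adjusted p = 3.5e-05), 2.48-fold, with the groups apart and a parent mean of 6.58 near the array median. FOXD3 (probe set 7901913), a forkhead factor of the early neural crest, was at 7.40, 7.50 and 7.68 in parent cells and 7.84, 7.81 and 7.81 in colonies. These groups lay close together without overlap. The rise of 0.29 ± 0.07 (adjusted p = 0.0128) no longer passed without parent replicate 2 (0.28, adjusted p = 0.0513), while it passed in the other 12 settings tried, with adjusted p-values from 0.00245 to 0.0496.

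SOX5 and SOX6, paired SOX factors without an activation domain of their own, both fell, by 0.42 ± 0.05 (adjusted p = 0.00021) and by 0.69 ± 0.07 (adjusted p = 0.00012) on the log2 scale. SOX8, a close relative of SOX10, differed by 0.20 ± 0.07 and did not pass (adjusted p = 0.0672), although its groups did not overlap. The POU factor genes POU3F1 (0.00) and POU3F2 (-0.13), which act in Schwann cell and neural development, did not pass the test. SOX10, the SOX factor that directs both the glial and the melanocyte lineage and is no member of the list, was 0.42 ± 0.06 higher.

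Intracellular markers of glia and neural precursors differed by under 2-fold or did not pass. S100B (probe set 8071036), a calcium-binding protein used as a marker of both glia and melanoma, was at 11.03, 11.03 and 11.02 in parent cells and 11.52, 11.58 and 11.67 in colonies. All colony values were higher, with a rise of 0.57 ± 0.05 (adjusted p = 6.7e-05). All 6 measured genes nearest to S100B, which lies at the end of its chromosome, were higher too, beside 20.9% of all genes. They rose by 0.21 to 0.70, a range that holds the S100B difference. Whether S100B and these neighbours moved together was not tested. FABP7, a fatty acid binding protein of radial glia and Schwann cell precursors, changed from 9.08 ± 0.09 to 8.51 ± 0.05 (mean ± SD, n = 3), a difference of -0.57 ± 0.06 (limma adjusted p = 0.00014). GFAP, the intermediate filament of astrocytes, was at 6.29, 6.38 and 6.57 in parent cells and 6.59, 6.40 and 6.38 in colonies, which overlap. NES, the intermediate filament nestin of neural precursors, was at 5.98, 6.09 and 6.29 in parent cells and 6.16, 6.35 and 6.13 in colonies, which overlap as well. GFAP (0.04 ± 0.09, adjusted p = 0.752), NES (0.09 ± 0.09, adjusted p = 0.510) and the ERBB2-binding scaffold gene ERBIN (0.11 ± 0.06, adjusted p = 0.195) did not pass the test.

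The remaining 3 members all passed the test, which called 43.8% of all genes. SCRG1 (probe set 8103736), a small secreted protein first found in scrapie-infected brain, was at 9.10, 9.07 and 9.20 in parent cells and 5.58, 5.84 and 5.76 in colonies. All colony values lay under the array median, and SCRG1 changed by -3.40 ± 0.08 (adjusted p = 1.4e-07), a 10.5-fold fall in the deposited values. Of the 10 measured genes nearest to SCRG1, 3 were lower and 1 higher, beside 22.9% and 20.9% of all genes. Their median was -0.16 and their lowest value -2.26 for GALNT7. TSPAN13 (probe set 8131600), a tetraspanin membrane protein, was at 9.38, 9.41 and 9.40 in parent cells and 8.14, 8.28 and 8.31 in colonies. It changed by -1.15 ± 0.06 (adjusted p = 3.5e-06), a 2.22-fold fall, with every colony value lower. SLC22A17, a membrane protein that binds lipocalin, rose by 0.26 ± 0.05 (adjusted p = 0.0029).

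**Figure D3:**
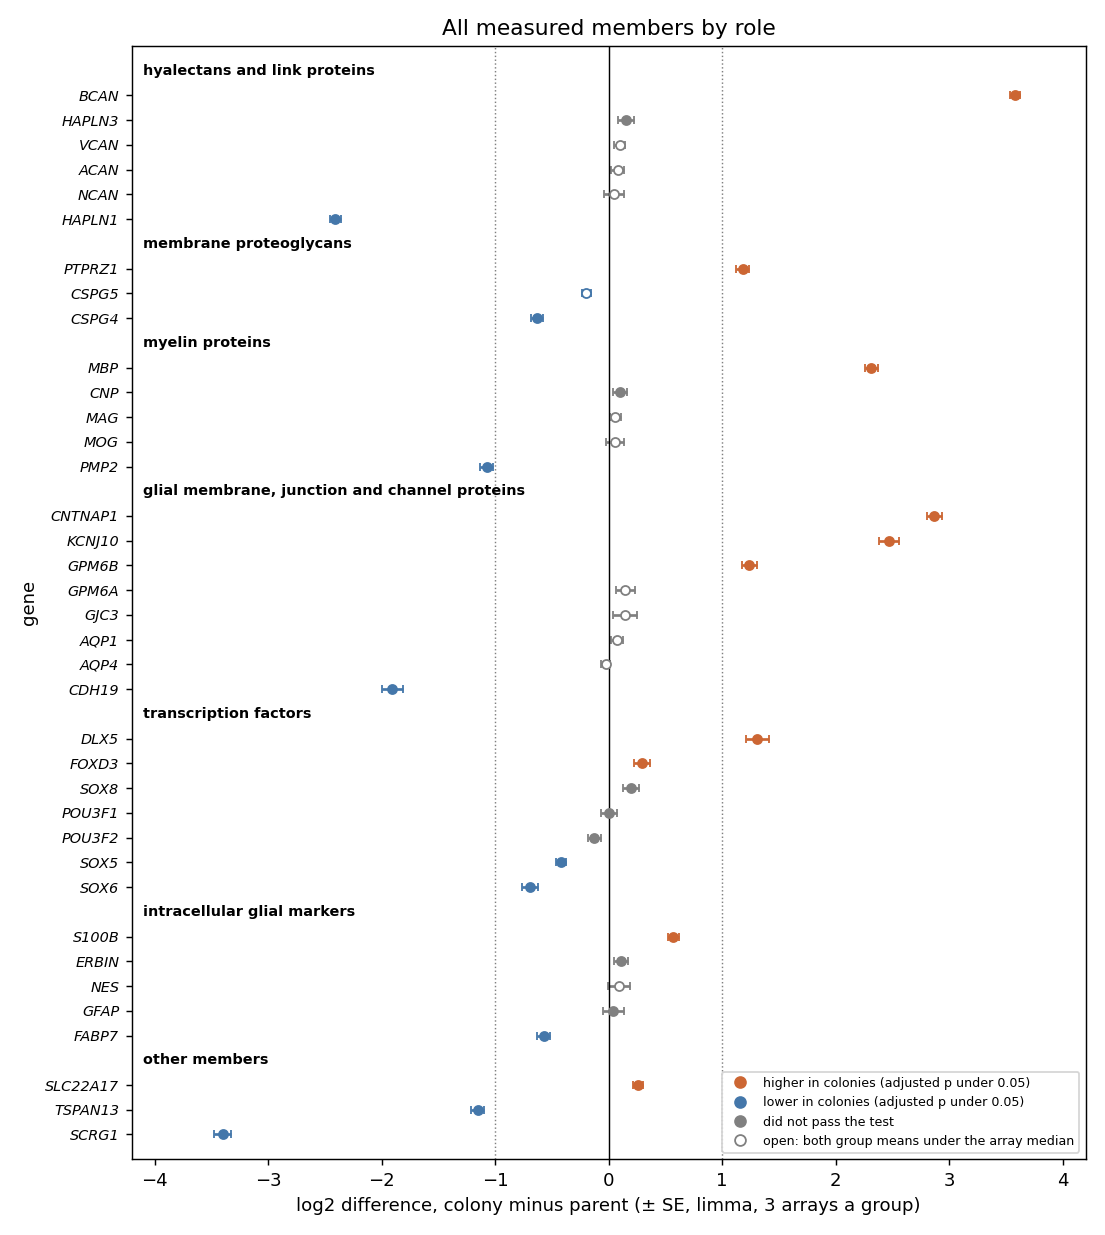
Log2 difference (colony minus parent, ± SE by limma, 3 arrays a group) of all 37 measured members, grouped by role, with dotted lines at a 2-fold difference and open symbols where both group means lay under the array median. Rises and falls that passed the test occur within each role, from 3.58 for BCAN to -3.40 for SCRG1. Of the 11 open symbols, 10 did not pass the test.

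Large differences also occurred near the members that differed at least 2-fold, among the 5 measured genes on each side. Each of the 12 members had at least 1 neighbour that passed the test in its own direction. Over all genes, 20.9% were called higher and 22.9% lower, which are shares of single genes and not of sets of neighbours. How often other genes have such neighbours was not counted. In 4 of the 12, a neighbour moved further than the member in the same direction. Near CDH19, SERPINB8 fell further (-2.77 ± 0.12), as did AGMO near TSPAN13 (-2.42 ± 0.06). HEY1 (-1.64 ± 0.04) and TPD52 (-1.64 ± 0.09) fell further than PMP2 nearby, and MOSPD2 (1.53 ± 0.07) rose further than GPM6B. In 2 of the 12 a neighbour moved further in the opposite direction, with FAM3C (-1.42 ± 0.05) lower next to PTPRZ1 and PAG1 (1.41 ± 0.05) higher next to PMP2. EDIL3, the measured gene after HAPLN1, rose by 1.83 ± 0.11 while HAPLN1 fell. Whether neighbouring genes moved together was not tested.

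Other genes of the Schwann and neural crest glial lineage moved in both directions. Of 19 measured genes of the list, 10 rose, 4 fell and 5 did not pass, with a median of 0.23, beside 0.00 over all genes. The called share was 73.7%, beside 43.8% of all genes. MAL, a proteolipid of myelin membranes, rose by 1.19 ± 0.08, SOX2, a factor of neural stem cells and immature Schwann cells, by 1.16 ± 0.08 from a parent mean under the array median, and NCAM1, a neural cell adhesion molecule, by 1.07 ± 0.05. NGFR, the nerve growth factor receptor of immature Schwann cells, rose by 0.97 ± 0.07. NFASC, the neurofascin of nodes and paranodes and a partner of Caspr there, changed by -0.91 ± 0.07, ADGRG6, an adhesion receptor needed for Schwann cell myelination, by -0.46 ± 0.04, and ERBB3, the neuregulin receptor of Schwann cells, by -0.28 ± 0.05.

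Of 17 genes of oligodendrocytes and astrocytes, 3 rose, 2 fell and 12 did not pass, a called share of 29.4% beside 43.8% of all genes. In both groups 10 of the 17 lay under the array median. The median was 0.00. GLUL, glutamine synthetase, rose by 0.67 ± 0.05 and the nuclear factor gene NFIA by 0.23 ± 0.05. OLIG2, a factor of the oligodendrocyte lineage, rose by 0.37 ± 0.07 with both means under the array median. PDGFRA, the growth factor receptor of oligodendrocyte precursors, changed by -0.57 ± 0.06 and NFIB by -0.51 ± 0.05.

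Partners of the hyalectans in the hyaluronan matrix had 1 of 9 measured genes higher and 3 lower, with a median of -0.09. Their called share of 44.4% was near the 43.8% of all genes. CD44, the main hyaluronan receptor, rose by 0.39 ± 0.05. TNC, the matrix protein tenascin C, changed by -1.68 ± 0.05, and the hyaluronan synthase genes HAS2 by -0.86 ± 0.05 and HAS3 by -0.37 ± 0.05. Among the enzymes that build and sulfate chondroitin sulfate chains, 5 of 21 were higher, 9 lower and 7 not past the test, with a median of -0.10. Their called share was 66.7%, beside 43.8% of all genes. The 2 enzymes that can start the chain moved in opposite directions, XYLT2 by 0.87 ± 0.05 and XYLT1 by -0.50 ± 0.05. B3GAT3, which completes its linker, rose by 0.83 ± 0.08, and the sulfotransferase gene UST by 0.71 ± 0.04. CHSY3 (-1.21 ± 0.08, with both means under the array median), CHPF2 (-0.99 ± 0.06) and CHSY1 (-0.50 ± 0.04), all of the family that extends the chain, fell.

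Proteases that cut hyalectans moved in both directions, with 2 of 6 measured genes higher and 1 lower, a called share of 50% beside 43.8% of all genes. ADAMTS4, an aggrecanase that also cleaves brevican, rose from 5.52 ± 0.06 to 7.81 ± 0.10 (mean ± SD, n = 3), a difference of 2.28 ± 0.07 (limma adjusted p = 3.3e-07) that started under the array median. ADAMTS1 rose by 1.04 ± 0.08, and ADAMTS9 changed by -2.02 ± 0.05. The other 3, ADAMTS5, ADAMTS8 and ADAMTS20, lay under the array median in both groups and did not pass the test.

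**Figure D4:**
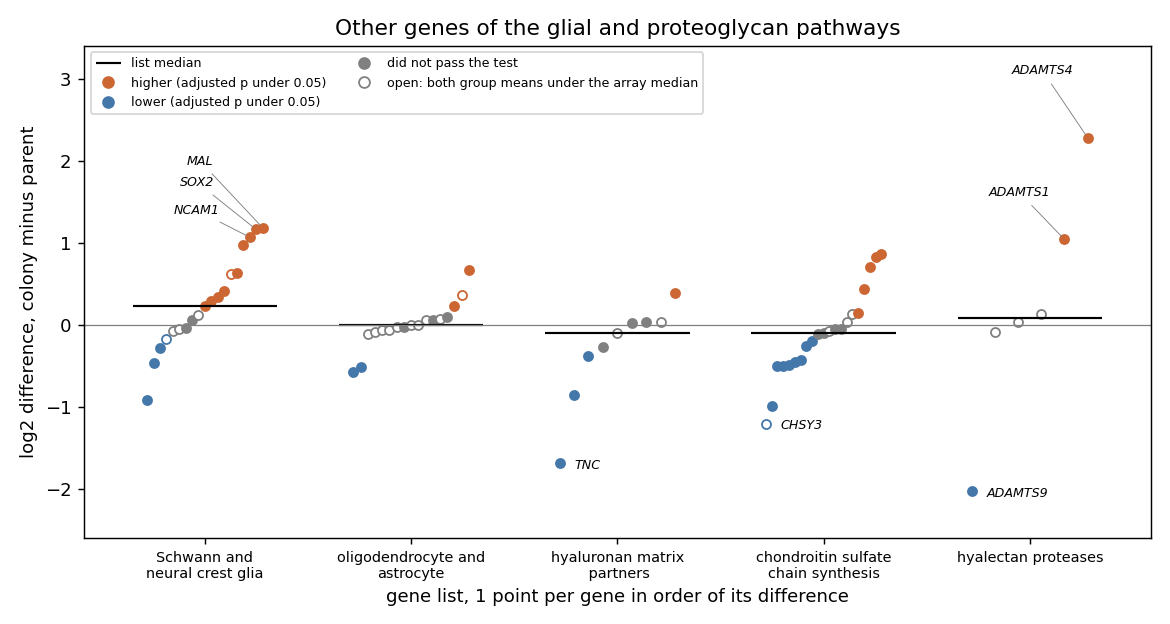
Log2 difference (colony minus parent) of each measured gene in 5 further lists, with a bar at each list's median, colours for the direction that passed the test, and open symbols where both group means lay under the array median. The Schwann and neural crest list has its median at 0.23, the oligodendrocyte and astrocyte list at 0.00, and ADAMTS4 at 2.28 and ADAMTS9 at -2.02 are the farthest points.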

How the data were processed

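RNA of 3 parent and 3 colony samples was read on 1-colour Affymetrix whole-transcript arrays, and groups were taken from the sample titles. The authors deposited log2 expression values per probe set, made with Affymetrix Expression Console per the submitters' processing notes, and how these were background-corrected, summarised and normalized is not given in the sources used here. Of 33297 probe sets, 19460 had 1 platform symbol, 1754 several and 12083 none. RefSeq (GRCh38.p14) was matched by Entrez ID for 19429 and gave the gene order and promoter windows. The highest-mean probe set stood for each gene, with no filter on dim genes, which left 18417.

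Groups were compared with limma (lmFit and eBayes, 2-sided) with no covariate, and p-values were adjusted by Benjamini and Hochberg's method over every gene, at a threshold of 0.05. SDs are over the 3 arrays of a group, and precision is limited by the number of arrays. On simulated data with 18417 genes, 50 genes each were changed by 0.5, 1, 2 and 3. There limma called 72% of genes changed by 0.5, 96% of those changed by 1 and 7 of 18217 unchanged genes. In the real data 43.8% of genes were called, a far larger share than was changed in the simulation. The adjusted threshold depends on that share, so these rates do not carry over to the data.

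The members, roles and further lists were chosen with earlier results of these data known. Per-array values are given for members that passed at 2-fold or more with a group mean above the array median, and for S100B, GFAP, MBP, NES and FOXD3. Each further list gives up to 3 genes past the test in each direction, and 10 genes were to be named whatever their values, of which 2 were not analysed here. METTL25B, GALNT7, XYLT1, the genes named as neighbours of the 2-fold members and the called markers were named after their values were seen. Versions were R 4.3.3, limma 3.58.1, Python 3.11.15, numpy 2.4.6, pandas 2.3.3, matplotlib 3.10.9.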

Additional observations from a re-analysis of the deposited data

How the results depend on the processing

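Each array was shifted to one shared median, quantile-normalized or left out. In another setting, genes whose mean over all arrays was not above the median of such means were dropped. Probe sets were averaged or tested singly, the eBayes variance given a trend and made robust, and the replicate number entered as a block. The members past 2-fold numbered 7 higher and 5 lower in each of these settings, and members called ranged from 19 to 21. Leaving each array out gave 7152 to 8354 calls over all genes. With the 11 dim members set aside, chosen after seeing the data, 19 were called.

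With the replicate block 21 members and 7564 genes were called, the added member being SOX8 (0.20, adjusted p = 0.0362). Deviations of same-numbered arrays from their group means were correlated at r = -0.09, -0.06 and -0.01. Whether same-numbered samples shared a culture or handling cannot be read from these values. SOX8 also passed with genes under the median mean dropped (limma adjusted p = 0.0284, range over all settings 0.0284 to 0.185). ERBIN passed after quantile normalization (0.18, adjusted p = 0.0413, range 0.0413 to 0.454) and POU3F2 without colony replicate 3 (-0.18, adjusted p = 0.0336, range 0.0336 to 0.327). TYRP1, a melanocyte marker, no longer passed with the replicate block (-0.23, adjusted p = 0.0632). The cause was not tested.

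Among members and named genes, signs turned in 6, which passed in none of these settings. The cause was not tested. POU3F1 was at -0.024 with one shared median and -0.026 after quantile normalization, and HAPLN2 at -0.006 and -0.009. Leaving out each array gave ranges of -0.075 to 0.067 for POU3F1, -0.053 to 0.105 for NCAN, -0.024 to 0.121 for GFAP, -0.033 to 0.12 for MOG and -0.014 to 0.123 for HAPLN4.

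Fewer genes were tested where those with a mean over all arrays not above the median of such means were dropped. In that setting 2 Schwann and neural crest genes were lower, against 4 in the main fit. Lower oligodendrocyte and astrocyte genes numbered 1 against 2, and higher protease genes 1 against 2. A gene dropped there was not tested. Leaving out each array gave 1 to 2 lower protease genes. Signal over background was not measured in the deposited values and limits what can be said of genes near the array median.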
